A study of Mus musculus with 10 samples.

Results

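Lumbar spinal cords of mice carrying a wild-type human TARDBP gene were compared with cords of nontransgenic control mice, which the study's design text calls littermates, in 5 of the 10 libraries of a study of TDP-43 transgenic mice. The members were chosen by the genotype labels alone, as the 2 libraries labelled WT (animals 8 and 10) and the 3 labelled nontransgenic, called NTg here (animals 4, 5 and 6). Both groups were female, aged 3 months, and each animal gave 1 library of polyA RNA. WT mice carried a bacterial artificial chromosome (BAC) with the human gene in human genomic sequence, and the labels name no other promoter. PhiC31 integrase had exchanged the BAC into the Rosa26 locus of IDG26.10-3 embryonic stem cells. The line was backcrossed to C57BL/6J for at least 3 generations, and the labels do not say whether these WT mice had 1 or both Rosa26 alleles changed, nor how many stem cell clones gave the line. The other 5 libraries of the study came from mice with the same BAC carrying the M337V mutation linked to amyotrophic lateral sclerosis (ALS), and served here to estimate the spread between animals. Read counts per gene were scaled to library size with TMM factors and are given as CPM, counts per 1000000.

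TDP-43, the product of TARDBP, is a mostly nuclear protein that binds GU-rich RNA, represses cryptic exons and keeps long neuronal transcripts intact. It also lowers its own messenger RNA when its level rises. In most cases of ALS it leaves the nucleus and collects in cytoplasmic deposits in motor neurons and glia, and it is found in stress granules, assemblies of stalled messenger RNA. The lumbar cord holds motor neurons, dorsal horn sensory neurons, and tracts wrapped in myelin by oligodendrocytes, so a bulk library mixes all of them. In such bulk tissue, fewer cells of a type and less RNA per cell cannot be told apart.

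Library totals ran from 19424118 to 21041474 counts over the 5 libraries, and 15191 genes passed the filter on low counts. The library labelled NTg 4 had as much human TARDBP as the transgenic libraries, which goes against that label. Genes of the Hox groups that mark the lumbar and sacral cord (groups 10 to 13) summed to 12.6 CPM in WT 8, against 224, 174 and 193 CPM in the 3 NTg libraries and 220.3 CPM in WT 10. Hoxc10, a lumbar marker, stood at 76.6, 66.9 and 70.8 CPM in NTg against 9.68 and 73.5 CPM in WT, and Hoxd10, which acts in lumbar motor neurons, at 46.2, 28.1 and 32.2 CPM in NTg against 0.105 and 42.04 CPM in WT. By these markers WT 8 had little of the lumbar cord's Hox pattern. Which animals shared a litter, a day of dissection or a sequencing batch is not in the labels. Counts of calls are therefore also given with the library labelled NTg 4, WT 8 or both left out, and the part of cord level or genotype in any difference was not tested. Values are listed in the order of the libraries labelled NTg 4, NTg 5 and NTg 6, then WT 8 and WT 10.

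Human TARDBP (ENSG00000120948) was counted apart from the mouse gene and stood at 118, 0.0493 and 0.186 CPM in NTg against 127 and 114 CPM in WT. The counts behind these levels were 2415, 1 and 4 in the NTg libraries and 2425 and 2335 in WT. In WT 8 this was 125 counts per 1000000 (95% exact binomial interval 120 to 130, counting error only), and in WT 10 it was 112 (107 to 116). The library labelled NTg 4 held 121 (116 to 126), between the WT libraries, so that the groups overlapped. The 5 M337V libraries held 116 to 141 CPM. The exact two-sided permutation test over libraries gave p = 0.3 for WT against NTg, where 0.1 is the smallest p that 2 against 3 allows (0.45 adjusted over 3 quantities). In edgeR's quasi-likelihood test the log2 difference was 1.61 ± 1.18 (SE) with an adjusted p of 0.426, and without the library labelled NTg 4 it was 9.91 with an adjusted p of 1.35e-09.

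Mouse Tardbp (ENSMUSG00000041459) stood at 237, 249 and 246 CPM in NTg against 244 and 255 CPM in WT, and the groups overlapped. The NTg mean was 244 ± 6.20 CPM (SD, n = 3) and the WT mean 249 ± 7.495 CPM (SD, n = 2), with an exact two-sided permutation p of 0.5. Per read counted, human TARDBP reached 0.520 times the mouse count in WT 8, 0.447 times in WT 10 and 0.499 times in the library labelled NTg 4. The sum of both genes was 371 and 368 CPM in WT, 355 CPM in the library labelled NTg 4, and 249 and 246 CPM in NTg 5 and NTg 6. The WT libraries therefore had the highest sums, with an exact p of 0.2 (0.45 adjusted).

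Across all genes, 857 of 15191 (5.64%) differed between WT and NTg at a Benjamini-Hochberg adjusted p below 0.05 in edgeR's quasi-likelihood test, the threshold behind every call below. Of these, 545 were higher in WT (3.59%) and 312 were lower (2.05%). Most differences were small, with a median size of 0.39 on the log2 scale, and 677 of the 857 were under 1.5-fold. Among the 85 genes that changed more than 2-fold, 79 were lower in WT and 6 were higher. All 857 had no overlap between the WT and NTg libraries, and over all genes 19.6% had both WT libraries above all 3 NTg libraries and 22.1% had both below. At an unadjusted p below 0.05 in edgeR's test there were 3842 of 15191 genes, while DESeq2 called 1720 and limma-voom 215. Counts of list members below are to be read beside these numbers and the shares above. Leaving out libraries cut the calls: 283 genes (1.87%, with 1.57% higher and 0.304% lower) were called without the library labelled NTg 4, and 246 (1.59%, 1.01% and 0.582%) when WT 8 was left out. Without NTg 6 the count was 44 (0.291%, 0.192% and 0.0991%). When both NTg 4 and WT 8 were left out, 142 were called (0.922%, 0.435% higher and 0.487% lower). Of 102 called genes chosen by the naming rule, 50 were called without NTg 4, 74 without NTg 5, 26 without NTg 6, 37 without WT 8, 38 without WT 10 and 25 when NTg 4 and WT 8 were both out, and none changed sign. Since no called gene overlapped between the groups, leaving out libraries could hardly change a sign, so the kept signs add nothing. The p-values set each difference against a spread estimated from all 10 libraries, the 5 M337V libraries among them. In a fit of the few NTg and WT libraries alone, 258 genes were called.

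**Figure D1:**
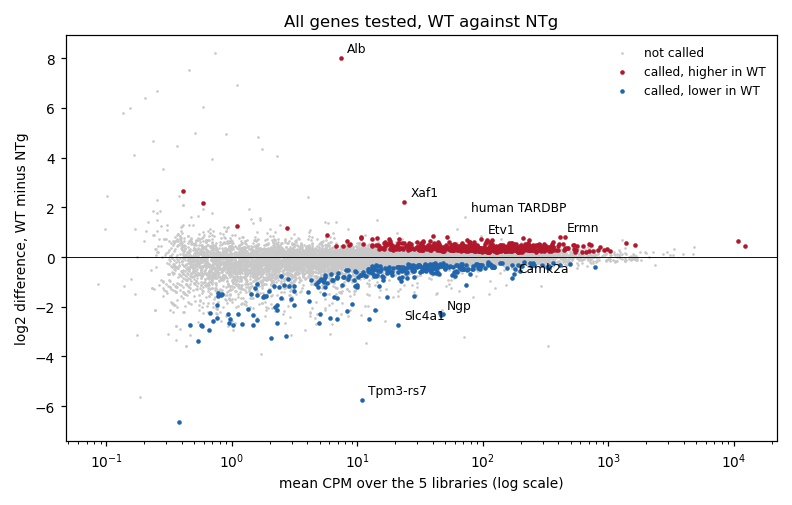
Log2 difference, WT minus NTg, against the mean CPM over the 5 libraries (log scale) for the 15191 genes tested, each point 1 gene. The 545 genes called higher in WT (red) and 312 called lower (blue) were mostly within 1.5-fold, Tpm3-rs7 stood far below the rest at its level, and human TARDBP was not called.

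Many genes of oligodendrocytes and central myelin were higher in WT. Of 35 measured, 15 were called higher and 0 lower, beside 3.59% of all genes called higher, and their median log2 difference was 0.35 against -0.02 over all genes. Ermn, a cytoskeletal protein of the myelinating oligodendrocyte, stood at 322, 358 and 280.3 CPM in NTg against 537 and 569.8 CPM in WT (log2 difference 0.79 ± 0.11, SE, adjusted p = 0.00957 in edgeR's test). Both WT libraries were above every NTg library for this gene.

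Gpr37, an oligodendrocyte receptor that restrains differentiation, stood at 216, 223 and 232 CPM in NTg against 288 and 305 CPM in WT (log2 0.41 ± 0.06, adjusted p = 0.00957). Enpp2, the enzyme autotaxin, which makes lysophosphatidic acid, stood at 629.8, 667 and 584 CPM in NTg against 878 and 884 CPM in WT (log2 0.49 ± 0.07, adjusted p = 0.0107). Ugt8a, which makes the galactosylceramide of myelin, stood at 408, 349.7 and 279 CPM in NTg against 643 and 559 CPM in WT, and Enpp6, a choline phosphodiesterase of newly formed oligodendrocytes, at 40.7, 42.96 and 36.6 CPM in NTg against 82.5 and 58.3 CPM in WT. For Ugt8a the log2 difference was 0.80 and for Enpp6 it was 0.81, the largest of the list. For Enpp6, WT 8 was further above WT 10 in ratio than for the other genes named here.

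The other called members given here were named after their values were seen. Mbp, myelin basic protein, which joins the inner faces of the myelin membrane, stood at 10700.4, 11420.3 and 10046 CPM in NTg against 15474 and 13545 CPM in WT (log2 0.44 ± 0.10, adjusted p = 0.0314). Mog, a protein of the outermost myelin surface, stood at 212, 239.9 and 199.98 CPM in NTg against 318 and 292 CPM in WT (log2 0.49 ± 0.11, adjusted p = 0.0311), and Mag, an adhesion protein facing the axon, at 762, 794 and 706 CPM in NTg against 997 and 865 CPM in WT (log2 0.30 ± 0.08, adjusted p = 0.0390). Cldn11, the tight junction protein of myelin, Tspan2, a tetraspanin, Nkx6-2, a transcription factor of oligodendrocytes, and Ppp1r14a, Tmem88b and Enpp4 were also higher, by 0.39 to 0.59 on the log2 scale. The 20 members that did not pass had log2 differences from 0.10 (Pllp) to 0.45 (Fa2h), so none was negative. Among them were Cnp (0.25, adjusted p = 0.106), Mobp (0.33, 0.215) and Sox10 (0.23, 0.0526).

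Both WT libraries lay above all 3 NTg libraries for 31 of the 35 genes, beside 19.6% of all genes. Summed over the list, CPM were 31129.9, 33654 and 28519 in NTg and 45039 and 41223 in WT. The count of called members was 10 without the library labelled NTg 4, 6 without WT 8 and 4 without both, while the median log2 difference was 0.38, 0.34 and 0.33. Without NTg 6 it was 5, with a median of 0.30. When each library's trend over GC content and transcript length was removed, 26 of the 35 were called higher, beside 4.97% of all genes. The list's median log2 difference was then 0.48, against 0.06 over all genes. The summed levels of Schwann cell, meningeal and neutrophil genes were lower in both WT libraries than in every NTg library, with Schwann sums of at least 720 CPM in NTg and at most 598 CPM in WT, and their part in the myelin result was not tested. Precursor genes gave fewer calls: of 15 measured, 1 was called higher, Nkx2-2, a transcription factor of the oligodendrocyte lineage (16.7, 12.7 and 12.1 CPM in NTg against 23.3 and 18.8 CPM in WT), which was no longer called without WT 8 (log2 0.44, adjusted p = 0.186). Pdgfra, the receptor that defines these precursors, had a log2 difference of 0.09 (adjusted p = 0.580).

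**Figure D2:**
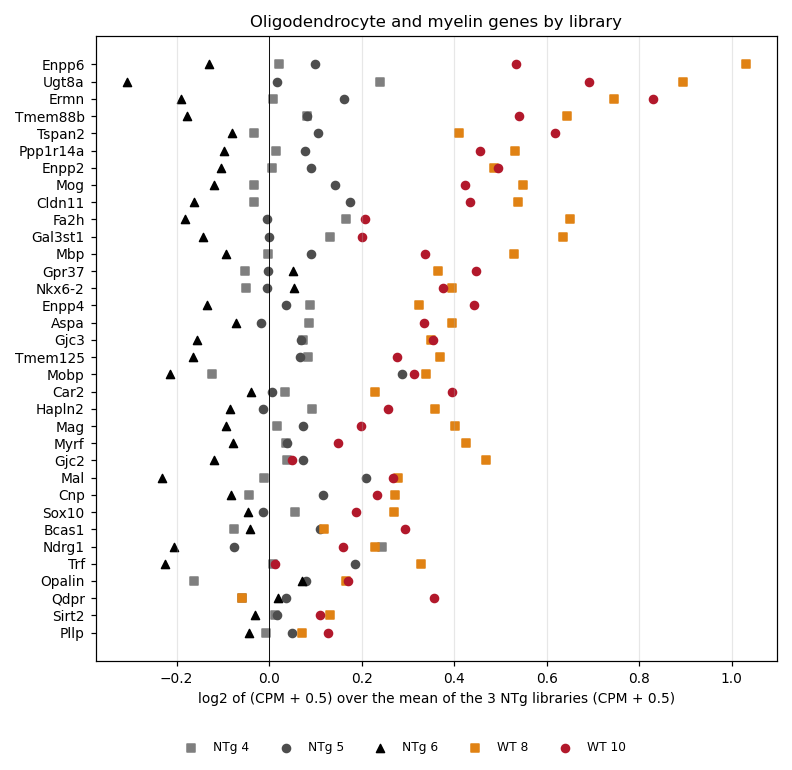
The oligodendrocyte and myelin genes (34 of the list shown), each point 1 library, as log2 of CPM + 0.5 over the mean of the 3 NTg libraries (CPM + 0.5), ordered by the fitted difference. Orange and red points (WT 8 and WT 10) lay right of all grey and black points (NTg) in 30 of the genes shown, and the gap narrowed towards the bottom.

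Myelin membrane is rich in cholesterol and very long-chain lipids that the oligodendrocyte makes itself, and sterol-regulated transcription (by SREBP factors, usually with the CCAAT-binding factor NF-Y) governs many of the enzymes. Of 21 enzymes listed under cholesterol synthesis, 5 were called higher and 0 lower, beside 3.59% of all genes called higher, with a median log2 difference of 0.25. Ggps1 is among the 5, although its product, geranylgeranyl diphosphate, is not a step on the way to cholesterol. To show the elements that this transcription reads, the stretches upstream of the first annotated exon are given for 2 called genes of the sterol lists, the ones in which they held a CCAAT box (written ATTGG on the other strand). They are from RefSeq on GRCm38.p6, both on the + strand, 5′ to 3′, with CCAAT or ATTGG and any TCACNCCAC (a form of the sterol regulatory element) in capitals.
Hmgcs1, chr13:119690101-119690350: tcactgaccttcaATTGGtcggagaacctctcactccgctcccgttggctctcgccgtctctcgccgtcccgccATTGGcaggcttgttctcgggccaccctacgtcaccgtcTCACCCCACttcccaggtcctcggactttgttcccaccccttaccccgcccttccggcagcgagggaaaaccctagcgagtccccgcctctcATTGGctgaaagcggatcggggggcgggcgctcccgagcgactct
Insig1, chr5:28071162-28071362: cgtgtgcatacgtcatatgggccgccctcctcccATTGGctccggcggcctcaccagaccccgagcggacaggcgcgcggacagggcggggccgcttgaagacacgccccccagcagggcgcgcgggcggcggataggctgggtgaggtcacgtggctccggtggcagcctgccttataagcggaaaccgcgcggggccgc

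In the 250 bases before each start, CCAAT on either strand was present in 6 of 6 called sterol genes with a RefSeq promoter (of 7 called) and in 33.8% of 32851 promoters. Of 33 measured sterol genes, 25 had such a promoter, and CCAAT was present in 21 of their 33 promoters (63.6%). Counted by gene, it was present in 20 of these 25 and in 10133 of 27025 genes over all promoters. TCACNCCAC on either strand was present in 1 of the 6, Hmgcs1, and in 1.05% of all promoters. The 2 motifs do not overlap in the Hmgcs1 stretch, and a match is a description of the letters only.

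Hmgcs1, which makes HMG-CoA at the entry to the pathway and was named after its values were seen, stood at 653, 643 and 509 CPM in NTg against 951 and 779 CPM in WT (log2 0.52 ± 0.13, adjusted p = 0.0376). Idi1, the isomerase that interconverts the isoprene units, stood at 42.4, 39.9 and 33.1 CPM in NTg against 55.4 and 51.7 CPM in WT (log2 0.48 ± 0.10, adjusted p = 0.0252), and Ggps1, which makes geranylgeranyl diphosphate, at 56.1, 57.05 and 56.9 CPM in NTg against 70.9 and 78.9 CPM in WT (log2 0.40 ± 0.07, adjusted p = 0.0134). Cyp51, the lanosterol demethylase, stood at 154, 164 and 165 CPM in NTg against 224 and 217 CPM in WT (log2 0.45 ± 0.08, adjusted p = 0.0135). Msmo1, which acts on the next methyl groups, stood at 163, 159.5 and 127 CPM in NTg against 223 and 213 CPM in WT (log2 0.54 ± 0.12, adjusted p = 0.0254). Both WT libraries were above all 3 NTg libraries in 17 of the 21 enzymes, beside 19.6% of all genes. Sqle, the squalene epoxidase, did not pass (log2 0.27, adjusted p = 0.0783).

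Of 12 genes of sterol sensing and uptake, 2 were called higher, Stard4, a carrier of cholesterol between membranes (80.4, 75.8 and 75.3 CPM in NTg against 111 and 94.6 CPM in WT), and Insig1, which holds SREBP in the endoplasmic reticulum (173, 185 and 172 CPM in NTg against 239 and 239 CPM in WT). Their log2 differences were 0.42 and 0.44. The SREBP genes Srebf1 (-0.32, adjusted p = 0.0807 in edgeR's test) and Srebf2 (-0.12, 0.396), and Scap (-0.14, 0.274), were not called and had the opposite sign. The list's median was 0.17, and both WT libraries lay above all 3 NTg libraries in 6 of the 12 and below in 2, beside 19.6% and 22.1% of all genes. Over all genes 3.59% were called higher and 2.05% lower. In the opposite direction, 2 of 11 genes of sterol export were called lower: Abcg4, a transporter that passes sterols to lipoproteins (74.4, 67.7 and 75.3 CPM in NTg against 54.2 and 54.5 CPM in WT), and Cyp46a1, the neuronal 24-hydroxylase that turns cholesterol over (47.4, 45.5 and 46.7 CPM in NTg against 36.7 and 36.9 CPM in WT). Abcg4, Cyp46a1 and Insig1 were not called without the library labelled NTg 4 (adjusted p = 0.0510, 0.0596 and 0.0547) or without WT 8, and Stard4 was not called without WT 8. The log2 differences of Abcg4 and Cyp46a1, -0.42 and -0.34, shrank to -0.21 and -0.13 with GC and length trends removed, where neither was called. Of the list of synthesis enzymes, 4 were called without NTg 4, with Ggps1 among them, and without WT 8 the list's median log2 difference was 0.18. With both left out 1, Ggps1, was called, and the list's median was 0.18. None of the 21 enzymes was called without NTg 6 (median 0.21), nor was any gene of the sensing and export lists.

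Enzymes of fatty acid and sphingolipid synthesis gave 6 calls among 19, all higher, beside 3.59% of all genes called higher. Elovl5, an elongase of polyunsaturated fatty acids, stood at 226, 228 and 204 CPM in NTg against 288 and 278 CPM in WT (log2 0.37 ± 0.06, adjusted p = 0.0123), and Elovl7, an elongase of saturated ones, at 98.1, 91.7 and 73.3 CPM in NTg against 161 and 121 CPM in WT (log2 0.68 ± 0.16, adjusted p = 0.0326). Acsl3, which activates fatty acids, stood at 327, 335 and 316 CPM in NTg against 376 and 422 CPM in WT, and Degs1, which desaturates dihydroceramide, at 128, 135 and 124 CPM in NTg against 152 and 160.1 CPM in WT. Elovl6 (0.27) and Acss2 (0.32), an elongase and an acetyl-CoA synthetase named after their values were seen, just passed with adjusted p of 0.0492 and 0.0496. Fasn, fatty acid synthase, did not pass and had the opposite sign (-0.20, adjusted p = 0.319). None of the 19 was called without NTg 6, where the list's median log2 difference was 0.18. Of the 4 genes named first, Elovl5 and Elovl7 were called without NTg 4 and Acsl3 without WT 8. With both left out only Acsl3 of these was called (log2 0.38, adjusted p = 0.0432).

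A set of 26 genes (0.171% of those tested) was called with all libraries, with each of the 5 left out in turn, and with both NTg 4 and WT 8 left out, with 20 higher in WT and 6 lower. The largest difference was that of Tpm3-rs7 (ENSMUSG00000058126, GRCm38 chr14:113314608-113316754), a processed copy of the tropomyosin gene Tpm3 that may share reads with its parent, so its level is uncertain. It stood at 23.1, 10.05 and 20.5 CPM in NTg against 0.314 and 0.341 CPM in WT (counts 472, 204 and 440 against 6 and 7). It fell by 5.74 ± 0.47 on the log2 scale (SE, adjusted p = 0.000715 in edgeR's test). The library labelled NTg 4 was with NTg for this gene, while the M337V libraries stood at 0.161 to 0.470 CPM, which spans the WT values.

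Etv1, a transcription factor of the ETS family known in proprioceptive circuits, stood at 82.02, 76.4 and 73.3 CPM in NTg against 126 and 128.9 CPM in WT (log2 0.72 ± 0.07, adjusted p = 0.00168), with 109 to 126 CPM in the M337V libraries. Dpy19l1, of a family of C-mannosyltransferases, stood at 189, 187 and 178 CPM in NTg against 269.9 and 261 CPM in WT (log2 0.52 ± 0.05, adjusted p = 0.00168). Efcab14, an EF-hand protein, stood at 198, 196 and 183 CPM in NTg against 295 and 276 CPM in WT and Tmeff1, a membrane protein with follistatin-like modules, at 99.4, 95.1 and 90.2 CPM in NTg against 159 and 145 CPM in WT. Pcdh9, a protocadherin, stood at 241, 244 and 228 CPM in NTg against 325 and 358 CPM in WT and Anln, an actin and septin scaffold also present in central myelin, at 195, 199 and 172 CPM in NTg against 324 and 282 CPM in WT. In each of these 6 genes the gap between groups was wider than the range within either group, which their choice by small p-values in these same libraries favours.

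Among the other higher genes of the 26, Gpm6b, a membrane glycoprotein, stood at 1459.9, 1474 and 1286 CPM in NTg against 1998 and 1934 CPM in WT (log2 0.48 ± 0.07, adjusted p = 0.0107), and Pip4k2a, a phosphoinositide kinase, at 269, 265 and 248 CPM in NTg against 399.7 and 347 CPM in WT (log2 0.52 ± 0.07, adjusted p = 0.00804). Chpt1, the last enzyme of phosphatidylcholine synthesis, stood at 211, 211 and 185 CPM in NTg against 276 and 292 CPM in WT (log2 0.49 ± 0.07, adjusted p = 0.00957), and Fam126b, a partner of phosphatidylinositol 4-kinase, at 138, 143 and 139 CPM in NTg against 204 and 208 CPM in WT (log2 0.56 ± 0.08, adjusted p = 0.00957). Itgb8, an integrin subunit that activates latent TGF-beta, stood at 250.1, 233 and 232 CPM in NTg against 317 and 349.9 CPM in WT (log2 0.48 ± 0.07, adjusted p = 0.00957). The other higher genes were Ptprd, a synaptic receptor phosphatase (0.47), Rhou, an atypical small GTPase (0.48), Sypl, a relative of synaptophysin (0.77), Ado, a thiol dioxygenase (0.40), Lcorl (0.61), Cdc37l1 (0.44), and Qk, Ermn and Gpr37, described with their lists. Members of the 26 beyond the 12 with the smallest p and those in a list were named after their values were seen.

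Lower in WT under every one of these fits were, beside Tpm3-rs7, Camk2a, Ly6h, Slc16a11, Jchain and an unnamed gene model, 4833420G17Rik. Ly6h, a lipid-anchored protein that modulates nicotinic receptors, stood at 67.7, 62.1 and 71.3 CPM in NTg against 40.97 and 39.7 CPM in WT (log2 -0.73 ± 0.09, adjusted p = 0.00753). Slc16a11, of the monocarboxylate transporter family, stood at 13.7, 10.4 and 12.6 CPM in NTg against 6.17 and 4.77 CPM in WT (log2 -1.16 ± 0.17, adjusted p = 0.0107). Jchain, which links immunoglobulin chains and marks plasma cells, stood at 3.67, 4.58 and 3.91 CPM in NTg against 1.41 and 1.12 CPM in WT (log2 -1.68 ± 0.25, adjusted p = 0.0107).

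**Figure D3:**
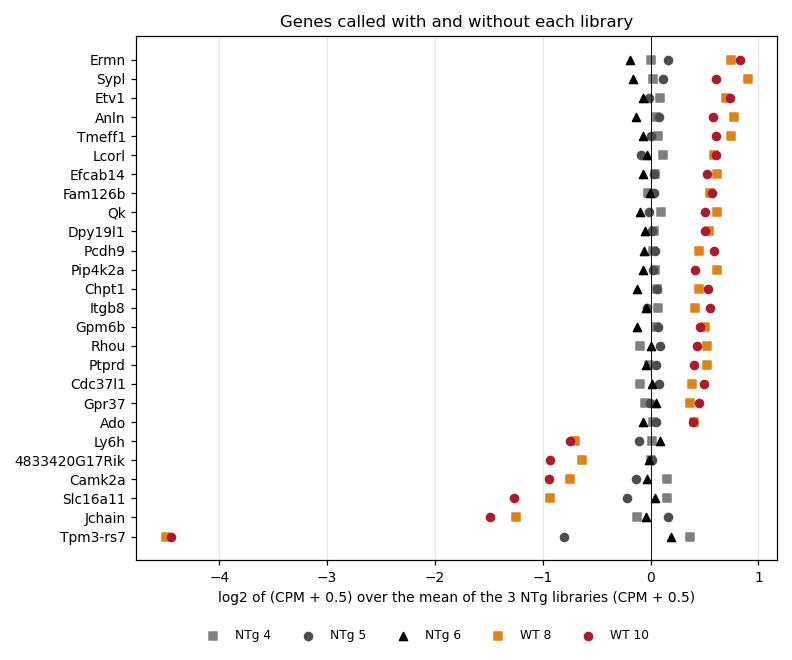
The 26 genes called with all 5 libraries, without each and without both NTg 4 and WT 8, each point 1 library, as log2 of CPM + 0.5 over the NTg mean (CPM + 0.5). The WT points (orange, red) lay apart from the NTg points (grey, black) in every gene, as in all 857 called genes, and Tpm3-rs7 was far below the others.

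RNA-binding proteins were examined because TDP-43 is one. Of 43 splicing regulators, 6 were called higher and 0 lower, beside 3.59% of all genes called higher. Their median log2 difference was 0.04, close to that of all genes. Qk, quaking, which controls splicing of myelin transcripts, stood at 1255, 1162 and 1096 CPM in NTg against 1794 and 1657 CPM in WT (log2 0.56 ± 0.08, adjusted p = 0.00957). The neuronal ELAV proteins Elavl2 (159, 160.2 and 150.4 CPM in NTg against 207 and 246 CPM in WT) and Elavl4 (113, 107 and 114 CPM in NTg against 139.6 and 166 CPM in WT), which stabilise transcripts, rose by 0.53 and 0.46 on the log2 scale. Mbnl2, a muscleblind splicing factor, stood at 334, 325 and 307 CPM in NTg against 414 and 441 CPM in WT (log2 0.41 ± 0.08, adjusted p = 0.0183), and Mbnl1 (0.27) and Nova1 (0.28), named after their values were seen, were also higher. Without both NTg 4 and WT 8, Qk and Elavl2 were the 2 still called, and without NTg 6 only Qk was. In the lowest of 5 equal groups of genes by GC content (up to 43.97%), 11.3% were called higher with all libraries. Transcripts of the splicing list had a median GC content of 42.9%, against 49.9% for all genes. With GC and length trends removed, 5 were called higher and 1 lower, and Qk, Elavl2, Mbnl2 and Elavl4 were still called.

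Genes tied directly to TDP-43 and ALS were examined next, beside 3.59% of all genes called higher and 2.05% lower. Of all 15191 genes, 3842 had an unadjusted p below 0.05 in edgeR's test, and DESeq2 called 1720 and limma-voom 215. Of 25 long neuronal and other transcripts known to be bound or controlled by TDP-43, 0 were called by edgeR (11 had an unadjusted p below 0.05, DESeq2 called 6 and limma-voom 0), and the median log2 difference was -0.02. The smallest p-values were those of Dlg2, a synaptic scaffold (139.7, 134 and 129.7 CPM in NTg against 160.4 and 151 CPM in WT, adjusted p = 0.0517), and Hdac6, a cytoplasmic deacetylase (46.96, 41.04 and 42.7 CPM in NTg against 36.7 and 33.8 CPM in WT, adjusted p = 0.0538). Stmn2, a microtubule regulator lost when human TDP-43 is depleted, had a log2 difference of 0.12 (adjusted p = 0.432), and Sort1, a sorting receptor, of 0.16 (adjusted p = 0.131). Of 32 genes of ALS and frontotemporal dementia, 2 were called higher: Tmem106b, a lysosomal protein (269, 261 and 249 CPM in NTg against 300.2 and 331 CPM in WT), and Chmp2b, a subunit of the endosomal ESCRT machinery (58.8, 57.6 and 50.98 CPM in NTg against 72.5 and 66.6 CPM in WT). Of 24 stress granule proteins, Nufip2 (71.4, 73.6 and 72.8 CPM in NTg against 92.03 and 92.8 CPM in WT) and Larp4 (71.6, 74.8 and 70.6 CPM in NTg against 88.6 and 102 CPM in WT), both RNA-binding, were called higher, while G3bp1, the core scaffold, was not (-0.13, adjusted p = 0.229). With GC and length trends removed, none of these 4 called genes passed (adjusted p = 0.139, 0.0589, 0.0629 and 0.0707), and without both NTg 4 and WT 8 none passed either.

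Sensory neurons of the dorsal horn signal with neuropeptides, and several of these genes were lower in WT. Of 21 measured peptides and receptors, 4 were called lower and 0 higher, beside 2.05% of all genes called lower, and the median log2 difference was -0.44. Sst, somatostatin of excitatory interneurons, stood at 78.7, 66.6 and 70.1 CPM in NTg against 38.7 and 45.3 CPM in WT (log2 -0.77 ± 0.11, adjusted p = 0.0105). Tac2, which encodes neurokinin B, stood at 31.5, 24.5 and 26.9 CPM in NTg against 15.02 and 13.3 CPM in WT (log2 -0.96 ± 0.23, adjusted p = 0.0374). Penk, the enkephalin precursor, stood at 101, 101 and 106 CPM in NTg against 82.04 and 69.6 CPM in WT (log2 -0.44 ± 0.08, adjusted p = 0.0178), and Npy1r, a receptor of neuropeptide Y, at 15.5, 13.7 and 12.3 CPM in NTg against 8.42 and 10.3 CPM in WT (log2 -0.56 ± 0.13, adjusted p = 0.0309). Both WT libraries lay below all 3 NTg libraries for 15 of the 21 genes, beside 22.1% of all genes. Among those not called were Npy (-0.87, adjusted p = 0.0536), Grp (-0.81, 0.0709), Cck (-0.42, 0.0714) and Tac1 (-0.42, 0.0786).

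The list summed to 419.7, 384 and 386 CPM in NTg and 286 and 275 CPM in WT. Its median stayed at -0.44 without the library labelled NTg 4, with 2 calls, and was -0.48 without WT 8, with 2 calls. Without both it was -0.40 with 1 call, Penk, and without NTg 6 -0.50, also with 1 call. With GC and length trends removed the median was also -0.44, with 2 calls, and Penk and Tac2 were no longer called (adjusted p = 0.0782 and 0.0704). The part of the dissection (dorsal against ventral cord) was not tested.

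Transcription factors that specify cord neurons went both ways, with 3 of 28 higher and 4 lower. Besides Etv1, Rora, a nuclear receptor of deep dorsal horn neurons (115, 109.5 and 111 CPM in NTg against 141 and 134 CPM in WT), and Nfib, a factor of late-born neurons and glia (139, 129.5 and 124 CPM in NTg against 182 and 161 CPM in WT), were higher, by 0.30 and 0.39 on the log2 scale. The 4 lower genes belong to the dorsal horn: Lmx1b (20.8, 19.4 and 19.9 CPM in NTg against 14.02 and 11.7 CPM in WT) and Prrxl1 (13.4, 11.1 and 12.7 CPM in NTg against 8.21 and 7.01 CPM in WT), which mark its excitatory neurons, and Pax8 (13.5, 11.5 and 13.1 CPM in NTg against 7.38 and 7.89 CPM in WT) and Lbx1 (14.8, 13.6 and 15.3 CPM in NTg against 11.2 and 11.2 CPM in WT), which mark its inhibitory and other dorsal neurons. Their log2 differences were -0.64, -0.70, -0.73 and -0.38. None of the 4 was called without the library labelled NTg 4, where the values were -0.61, -0.64, -0.68 and -0.36. Rora and Nfib were not called without WT 8 (adjusted p = 0.0569 and 0.0823). With GC and length trends removed, Lmx1b and Lbx1 were not called (adjusted p = 0.0853 and 0.323).

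Of 19 genes of Hox groups 4 to 9, which pattern the cervical and thoracic cord, 3 were lower: Hoxb9 (99.02, 89.9 and 93.5 CPM in NTg against 70.7 and 62.8 CPM in WT), Hoxb8 (217, 219 and 225 CPM in NTg against 181 and 159 CPM in WT) and Hoxb6 (39.6, 37.6 and 36.6 CPM in NTg against 30.3 and 28.99 CPM in WT). None of the 3 was called with GC and length trends removed (adjusted p = 0.0644, 0.134 and 0.182), 1 other gene of the list was called higher, and the list's median turned from -0.13 to 0.06. Groups 10 to 13 gave 0 calls among 11 by edgeR, DESeq2 or limma-voom and 0 at an unadjusted p below 0.05, with WT 8 low and WT 10 within or near NTg for Hoxa10 (47.1, 43.01 and 46.7 CPM in NTg against 2.62 and 47.5 CPM in WT), a gene of the lumbar cord. Hoxa13 and Hoxb13, the most posterior genes measured with Hoxd13, were at 0 counts in WT 8, which allows up to 3 counts, and at 1.51 CPM in WT 10, against 0.0931 to 0.245 CPM in NTg, and were not called. The 2 WT cords thus differed from each other in posterior Hox genes. No Hox gene of either list was called without both NTg 4 and WT 8.

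Genes of synaptic transmission gave scattered calls. Of 25 genes of glutamate signalling, Camk2a, the postsynaptic kinase of excitatory synapses, stood at 231, 189 and 204 CPM in NTg against 123 and 108 CPM in WT (log2 -0.85 ± 0.13, adjusted p = 0.0107) and was among the 26 genes. Dlg4, the scaffold PSD-95 (-0.22), and Grin2d, an NMDA receptor subunit (-0.42), were also lower, and Homer1, a scaffold of metabotropic receptors, was higher (0.32). Of 20 inhibitory genes and calcium buffers, 2 were called higher and 1 lower. Glrb, the glycine receptor beta subunit (396, 413 and 405 CPM in NTg against 500.0 and 550.0 CPM in WT), was higher by 0.38 on the log2 scale. Calb1, calbindin, was lower (48.2, 51.9 and 43.1 CPM in NTg against 36.6 and 32.01 CPM in WT, log2 -0.48). One of 27 sodium and potassium channel genes was called, Scn3b, a sodium channel subunit (-0.53). Of the genes named here, Camk2a and Homer1 were called without NTg 4, Camk2a and Calb1 without WT 8, and Camk2a with both left out. Dlg4, Grin2d and Homer1 were not called with GC and length trends removed.

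Cholinergic and motor neuron genes gave 0 calls among 18 by edgeR, although their median log2 difference was 0.26. At an unadjusted p below 0.05 there were 7, beside 3842 of all 15191 genes. DESeq2 called 3 of the list, beside 1720 of all genes, and limma-voom 0 of the list. The smallest p-values in this list were those of Esrrg, a nuclear receptor of gamma motor neurons (99.3, 100.5 and 109 CPM in NTg against 129.6 and 138 CPM in WT, log2 0.38, adjusted p = 0.0610), and Slc5a7, the choline transporter. Slc5a7 stood at 104, 112 and 118 CPM in NTg against 178 and 186 CPM in WT, without overlap between the groups, with a log2 difference of 0.71 and an adjusted p of 0.0774. Chat, which makes acetylcholine, overlapped between the groups (23.6, 26.7 and 30.1 CPM in NTg against 34.01 and 28.8 CPM in WT). Synaptic vesicle genes gave 0 calls of 22 and neurofilament and axonal transport genes 0 of 20, with medians of -0.11 and 0.0039. At an unadjusted p below 0.05 there were 9 and 3 genes, DESeq2 called 5 and 1, and limma-voom called 0 in both lists. The smallest adjusted p were that of Syn2, a synapsin (0.0552), in the former and that of Map2, a microtubule protein of dendrites (0.0759), in the latter.

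Among other glia, 2 of 24 microglial genes were higher: P2ry12, the purinergic receptor of homeostatic microglia (29.8, 28.4 and 22.95 CPM in NTg against 39.03 and 39.99 CPM in WT), and Sall1, a transcription factor of the same cells (60.9, 53.8 and 53.2 CPM in NTg against 79.3 and 69.6 CPM in WT). Defining genes such as Cx3cr1 (0.20, adjusted p = 0.218) and Tmem119 (0.25, 0.256) did not pass. Irf8 (-0.49, 0.0960) and Spi1 (-0.36, 0.285) had the opposite sign and did not pass either. Over all genes 3.59% were called higher. The microglial median was 0.16, and both WT libraries lay above all 3 NTg libraries in 8 of the 24 genes and below in 4, beside 19.6% and 22.1% of all genes. Of 18 astrocyte genes, S100b, a calcium-binding protein also present in oligodendrocytes, was the 1 called (725, 860.0 and 678 CPM in NTg against 1053 and 960.3 CPM in WT, log2 0.42). Gfap, the astrocyte filament, had a log2 difference of 0.67 with an adjusted p of 0.108. Ependymal genes gave 0 calls of 17 by any of the 3 tools and 0 at an unadjusted p below 0.05, the closest being Rarres2 (adjusted p = 0.211). P2ry12 and Sall1 were called without NTg 4 but not without WT 8. With both left out none of the astrocyte or microglial genes was called, while the log2 difference was 0.65 for P2ry12 and 0.39 for Sall1, beside 0.55 and 0.41 with all libraries.

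Calls among genes of vessel walls and of the tissue around the cord were all lower in WT. Acta2, smooth muscle actin, stood at 8.67, 10.0002 and 8.29 CPM in NTg against 3.09 and 2.83 CPM in WT (log2 -1.60 ± 0.26, adjusted p = 0.0117), and Myh11, smooth muscle myosin, at 10.1, 10.3 and 8.47 CPM in NTg against 4.55 and 4.29 CPM in WT (log2 -1.12 ± 0.29, adjusted p = 0.0452), the 2 calls among 13 mural genes. Of 20 endothelial genes, Vwf, von Willebrand factor (52.1, 38.3 and 25.6 CPM in NTg against 13.8 and 12.03 CPM in WT, log2 -1.58), and Egfl7, an angiogenic factor (18.7, 19.1 and 14.9 CPM in NTg against 12.7 and 12.5 CPM in WT, log2 -0.47), were lower, while Cldn5, the barrier claudin, was not called (-0.25, adjusted p = 0.404). Of 20 meningeal and fibroblast genes, Col6a1 (27.2, 15.03 and 14.8 CPM in NTg against 9.84 and 7.11 CPM in WT) and Fbln1 (21.5, 16.2 and 13.2 CPM in NTg against 9.52 and 10.7 CPM in WT), both of the extracellular matrix, were lower. Of these 6 genes, Acta2 alone was called without NTg 4 (adjusted p = 0.0268) and without WT 8 (0.0489). With GC and length trends removed, Vwf, Egfl7, Col6a1 and Fbln1 were not called. The meningeal median was -1.24, and -0.48 without both NTg 4 and WT 8, where no meningeal or mural gene was called and 1 endothelial gene was.

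Schwann cells wrap peripheral axons, and their genes mark nerve roots. None of 17 was called by edgeR, while DESeq2 called 3 and limma-voom 0. At an unadjusted p below 0.05 there were 11, beside 3842 of all 15191 genes. The list summed to 2591, 872 and 720 CPM in NTg and 427 and 598 CPM in WT. The library labelled NTg 4 was highest and WT 8 lowest, so the 2 libraries that stood apart also marked the ends of this range. The smallest adjusted p in this list were those of Sox8 (0.0538) and Erbb3 (0.0613), both also expressed in oligodendrocytes. Both were higher in WT (log2 0.36 and 0.28), against a list median of -1.53. Of the 17, both WT libraries lay above all 3 NTg libraries in 3 and below them in 10, beside 19.6% and 22.1% of all genes.

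Skeletal muscle genes summed to 327, 1178 and 1749 CPM in NTg and 1049 and 161 CPM in WT, so the groups overlapped and 0 of 22 were called by edgeR, DESeq2 or limma-voom, with 0 at an unadjusted p below 0.05. Without both NTg 4 and WT 8, 15 of the 22 were called lower, with a median of -4.55, and WT 10 held the least of this RNA. Mb, myoglobin, for example, stood at 12.8, 25.8 and 46.05 CPM in NTg against 19.9 and 1.997 CPM in WT. Fat genes gave 0 calls of 8 (of 12 listed) by any of the 3 tools and 0 at an unadjusted p below 0.05, the closest by p being Fabp4 and Adipoq, with adjusted p of 0.486 and 0.493.

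Calls among the neutrophil and red cell precursor lists were also all lower in WT. All 14 neutrophil genes had both WT libraries below all 3 NTg libraries, and 6 were called, Camp, Ly6g, Mpo, Ngp, S100a8 and S100a9 (the last 2 named after their values were seen). Mpo, myeloperoxidase of granulocyte precursors, stood at 15.1, 3.99 and 7.82 CPM in NTg against 0.942 and 2.34 CPM in WT (log2 -2.44 ± 0.53, adjusted p = 0.0265), and Ngp, a granule protein, at 113, 34.5 and 56.3 CPM in NTg against 7.01 and 19.97 CPM in WT (log2 -2.32 ± 0.56, adjusted p = 0.0373). Their sum over the list was 573, 178 and 276 CPM in NTg and 44.8 and 117 CPM in WT. No neutrophil gene was called without the library labelled NTg 4, where the median moved from -2.25 to -1.63. Of 9 genes of red cell precursors, 1 was called lower, Slc4a1, with a list median of -0.65, and 4 had both WT libraries below all 3 NTg libraries, beside 22.1% of all genes. Slc4a1, the band 3 anion exchanger, stood at 51.6, 16.8 and 28.4 CPM in NTg against 2.77 and 6.77 CPM in WT (log2 -2.75 ± 0.63, adjusted p = 0.0312). Hbb-bs, beta globin, overlapped between the groups (709, 399.5 and 439 CPM in NTg against 659 and 227 CPM in WT). The 12 largest decreases among called genes averaging 1 CPM or more were Tpm3-rs7, Slc4a1, Camp, Rhag (-3.27), Trim10 (-3.18), Btnl10 (-2.75), Epb42, a red cell membrane protein (-2.64), Ermap (-2.63), Car1, a carbonic anhydrase (-2.55), Aqp1, a water channel (-2.49), Prss34, a protease of mast cells and basophils (-2.74), and Tubb1, the platelet tubulin (-2.70). Tpm3-rs7 was called in each of these fits, and of the others Ermap and Aqp1 were called without NTg 4 and none without WT 8 or with both left out.

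**Figure D4:**
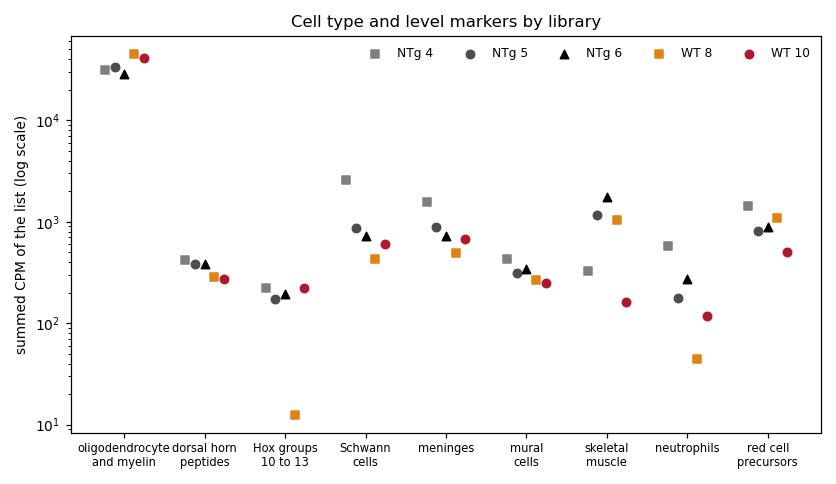
Summed CPM (log scale) of 9 marker lists in the 5 libraries. WT 8 and WT 10 lay above NTg for the myelin list and below NTg for dorsal horn, Schwann, meningeal, mural and neutrophil lists, WT 8 was low for Hox groups 10 to 13, and muscle and red cell lists overlapped between the groups.

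Few genes were more than 2-fold higher. Xaf1, an interferon-inducible partner of apoptosis inhibitors, stood at 10.3, 10.7 and 8.19 CPM in NTg against 53.6 and 35.9 CPM in WT (log2 2.20 ± 0.57, adjusted p = 0.0452), with both WT libraries above NTg. The M337V libraries ran from 9.93 to 51.6 CPM for Xaf1, from the NTg level into the WT range. Alb, serum albumin, stood at 0, 0.148 and 0.0466 CPM in NTg against 36.6 and 0.195 CPM in WT (log2 8.02, adjusted p = 0.0252), so its call came from WT 8, and without WT 8 the log2 difference was 1.51 with an adjusted p of 0.667. Prrg1, a membrane protein with a Gla domain, stood at 32.03, 30.7 and 28.1 CPM in NTg against 55.6 and 53.001 CPM in WT (log2 0.84 ± 0.16, adjusted p = 0.0184), and Tifa and Alpk1, partners in the innate sensing of bacterial sugars, at 7.88, 8.52 and 8.29 CPM in NTg against 13.4 and 15.5 CPM in WT and 9.21, 8.28 and 7.68 CPM in NTg against 14.5 and 13.7 CPM in WT. Dmrta1 (1.18), Pcdhb21 (0.87) and Slc45a3 (0.75) completed the 12 largest increases (averaging 1 CPM or more) with the lipid and myelin genes Enpp6, Ugt8a and Ermn and with Sypl. Of the genes of this paragraph outside the lists above, Sypl was called both without NTg 4 and without WT 8, Prrg1 and Pcdhb21 without NTg 4 alone, and Alb, Tifa, Alpk1, Dmrta1 and Slc45a3 in neither. Xaf1 was not called without the library labelled NTg 4 (log2 2.25, adjusted p = 0.0994) or without WT 8 (1.89, 0.132).

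Stress and housekeeping lists gave 0 to 2 calls each, beside 3.59% of all genes called higher and 2.05% lower. Of all 15191 genes, 3842 had an unadjusted p below 0.05 in edgeR's test, and DESeq2 called 1720. Of 19 heat shock chaperones, Hspa4l, a relative of Hsp110, was higher (406, 406 and 412 CPM in NTg against 515 and 516 CPM in WT, log2 0.34). Of 22 genes of the integrated stress response, Psat1, of serine synthesis (252, 267 and 245 CPM in NTg against 322 and 351 CPM in WT), and Vldlr, a lipoprotein receptor (108, 108 and 107 CPM in NTg against 141 and 123 CPM in WT), were higher. Nr3c1, the glucocorticoid receptor, was the 1 call among 16 glucocorticoid genes (0.26), and Clock (0.26) and Nr1d2 (0.28) were the 2 among 18 clock genes. Of 21 interferon-induced genes, Ifit2 was called (0.34). Of these 7 genes, Psat1, Nr3c1 and Ifit2 were called without NTg 4, Psat1 and Clock without WT 8, and none with both left out. Hspa4l, Clock and Nr1d2 were not called with GC and length trends removed. Immediate early genes gave 0 calls of 25 by edgeR (3 at an unadjusted p below 0.05, 2 called by DESeq2 and 0 by limma-voom), with Klf2 among the smallest p (adjusted p = 0.0925). Antigen presentation genes gave 0 of 18 by all 3 tools, with 10 at an unadjusted p below 0.05, a median of -0.50 and Cd74, the invariant chain of class II molecules, at 26.4, 11.3 and 12.6 CPM in NTg against 4.34 and 7.16 CPM in WT. Of 76 ribosomal protein genes 1 was lower, Rpl34 (-0.50, not called without NTg 4, without WT 8 or with GC and length trends removed), and of 58 respiratory chain genes 0 were called by any of the 3 tools, with 1 at an unadjusted p below 0.05 and a median of 0.04. None of 11 genes known to differ between the strains that embryonic stem cells and C57BL/6 mice come from was called by edgeR (4 at an unadjusted p below 0.05, 2 called by DESeq2 and 0 by limma-voom), where Wdfy1 (0.0665) and Nnt (0.104) had the smallest adjusted p.

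The BAC lies in Rosa26 (Gt(ROSA)26Sor, GRCm38 chr6:113067428-113077333). Within 5 Mb of it, 3 of 67 genes were called (4.48%), Sumf1, Oxtr and Cxcl12, against 33 of 684 on the rest of the chromosome (4.82%). The nearest measured genes on either side, Rad18, Srgap3, Thumpd3, Setd5, Lhfpl4 and Mtmr14, were not called. Setd5, a chromatin regulator next to the locus, stood at 131, 135 and 139 CPM in NTg against 151 and 125 CPM in WT (adjusted p = 0.829). Across chromosomes the share of genes called ran from 3.56% on chromosome 17 to 9.24% on chromosome 3.

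The share of genes called differed with the base composition of the transcripts. Genes called higher had a median GC content of 42.4% and a median transcript length of 4735 bases, genes called lower 54.7% and 3396 bases, and all genes 49.9% and 3421 bases. With the genes split into 5 equal groups by GC content, 11.3% of the lowest group were called higher and 0.528% lower, and 0.330% and 4.63% of the highest. With each library's GC and length trends removed, 898 genes were called (5.91%), 755 higher (4.97%) and 143 lower (0.941%), of which 480 were among the 857, and the lowest and highest groups had 5.84% and 4.59% called higher. Myelin transcripts had a median GC content of 50.9%, near that of all genes, and dorsal horn genes 51.9%. Of the 102 called genes chosen by the naming rule, 77 were also called with the trends removed. Beside those given with their lists, Prss34 was among the 25 lost.

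**Figure D5:**
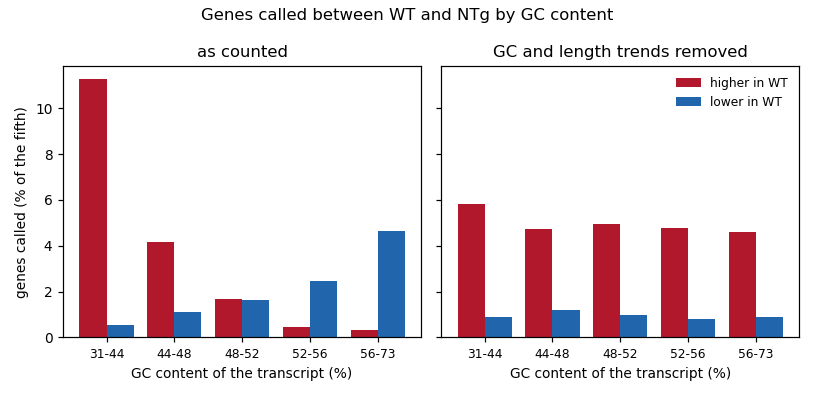
Percent of genes called higher (red) and lower (blue) in WT in each of 5 equal groups of transcript GC content, from the counts as deposited (left) and with GC and length trends removed per library (right). On the left the share called higher fell from 11.3% to 0.330% with rising GC content, and on the right it lay between 4.59% and 5.84%.

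Directly between the 2 transgenic groups, edgeR called 0 of 15191 genes for M337V against WT, with 1012 at an unadjusted p below 0.05. Of the 26 genes, 14 were among those 1012, and 0 were called. The 26 were chosen by how far the same 2 WT libraries stood from NTg. Their count therefore cannot show a difference between the transgenic groups.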

How the data were processed

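PolyA RNA of the lumbar cord was sequenced as stranded TruSeq read pairs, per the labels' protocols. The authors deposited unnormalised whole-number counts of reads for each gene, and 5 of the 10 columns were compared here. STAR 2.4.2a, featureCounts, Subread 1.4.6 and DESeq2 1.14.1 are among the tools in the submitters' processing notes, which do not give the role of each. The genome build, the annotation and the strand setting of the counting were not given in the sources used here, so overlapping genes are uncertain. Of 22024 identifiers, 21774 were named from GENCODE (GRCm38), the source of gene coordinates, GC content and length.

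Counts were analysed in R 4.3.3 with edgeR 4.0.16 (filterByExpr, minimum count 10 and total 15, which removed 6833 genes; TMM; glmQLFit and glmQLFTest on all 10 libraries with a mean per group). Log2 differences carry standard errors, and p-values were Benjamini-Hochberg adjusted over 15191 genes. Exact two-sided permutation tests were used for TARDBP levels. The fit was tested on simulated data. No 2 of the 10 libraries were copies (chi-square per degree of freedom of at least 4.874 between any pair). Intervals and floors (3 counts for a 0) cover counting error only.

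The comparison, the 41 gene lists and the naming rule were chosen with earlier results of these data known, so lists are described by counts and medians without a test. Named by rule were human TARDBP and Tardbp, the 12 largest called differences each way among genes averaging 1 CPM or more without overlap, up to 4 called members per list and direction, up to 2 members of a list without calls, the 15 smallest p-values, up to 12 genes called in every fit that left out libraries, and 3 neighbours on each side of Rosa26. Well-known genes outside the rule were named after their values were seen. Alternatives were RLE size factors, library totals, other filters on low counts, a fit of NTg and WT alone, robust dispersions, limma-voom (limma 3.58.1), DESeq2 1.42.0, removal of GC and length trends (loess span 0.5), and leaving out libraries. A few of the genes these rules name are not reported here.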

Additional observations from a re-analysis of the deposited data

How the results depend on the processing

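The count of genes called between WT and NTg, 857 with 64% higher, depended on the method. It was 258 (186 higher, 72 lower) when NTg and WT libraries were fitted alone, 215 (176 and 39) with limma-voom and 1720 (1102 and 618) with DESeq2. Leaving out 1 library in turn gave 44 to 576, with 237 higher and 46 lower without NTg 4 and 224 and 41 without WT 10. Leaving out both NTg 4 and WT 8 gave 142 (67 and 75), of which 74 were among the 857. With library totals in place of TMM the split turned to 297 higher and 496 lower of 793, and with GC and length trends removed it was 755 and 143 of 898. RLE size factors (949), no filter (813), a mean of 1 CPM in each group (886) and robust dispersions (962) stayed within 1.5 times of 857. The median of all genes moved from -0.02 to -0.07 with library totals and to 0.06 with the trends removed. Of 102 called genes chosen by the naming rule, all 102 were called by DESeq2, 40 by limma-voom, 92 with library totals and 77 with the trends removed, and none changed sign. The difference of mouse Tardbp in CPM was -3.77 with library totals, and its log2 difference was -0.022 there and -0.060 with the trends removed. Signs also changed in genes that were not called. With the trends removed Uqcrc1 was at 0.012, Lhfpl4 at 0.052 and Mtmr14 at 0.096. With 1 library left out in turn, Hoxa13 ran from -4.85 to 3.05 and Hoxb13 from -4.85 to 3.05, Mtmr14 from -0.18 to 0.017, Rad18 from -0.055 to 0.018 and Setd5 from -0.10 to 0.16. Rad18 was at 0.00065 in the fit of NTg and WT alone, 0.00096 with limma-voom and 0.034 with NTg 4 and WT 8 both left out. Setd5 was at -0.020 with library totals and -0.12 with those 2 left out. The causes of these changes were not tested beyond the fewer libraries each fit held. Where WT 8 or WT 10 was left out, the lone WT library was assumed to vary like the other groups. No paired analysis was possible because the groups share no animal number. With 2 WT libraries the exact test cannot reach below 0.1.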
